A study of Mus musculus with 10 samples.

Results

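The genes described here are 44 interferon-stimulated antiviral genes, given by name as receptors, transcription factors, sensors, oligoadenylate synthetases, GTPases and other effectors. Probes were taken where the symbol on the array was one of these names. All 44 had a probe, 49 probes in all, and 5 of them had 2 probes. Of the 44, 43 had enough values for the comparison, among 19557 genes tested. The exception was Oas3.

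Pancreatic islets were studied in mice of the C57BLKS/J background at 9 weeks of age, 5 arrays of db/db and 5 of lean db/+ controls. The db allele disrupts the leptin receptor gene Lepr. Mice with 2 copies are obese and diabetic, and the labels place 9 weeks in the stage of severe high blood glucose, after the beta cells have begun to fail. Each array held RNA of 1 biological replicate in Cy5 against islet RNA of 9-week db/+ mice in Cy3. The sources used here do not say how many mice made up a replicate, or if the reference was drawn from the control replicates. All values below are log2 ratios of Cy5 over this db/+ reference unless an intensity in arbitrary units is named, so 0 means the level of the reference. Array values are listed in the order of the labels' replicate numbers, 1 to 5.

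Interferons are secreted proteins that warn cells of virus infection. Type I interferons bind the receptor of Ifnar1 and Ifnar2, and interferon gamma binds a receptor that contains Ifngr1. The receptors act through Janus kinases on STAT proteins, and a complex that contains Stat2 and Irf9 binds an element called ISRE in the promoters of its target genes, while STAT dimers bind an element called GAS. The products then sense viral RNA, degrade it, block its translation or trap particles, and many of them also feed back on the pathway. In islets, interferons are best known from the inflammation around the beta cell in type 1 diabetes.

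The promoters of 9 of the genes are shown to let the ISRE and GAS letters be seen beside the values that follow. Each stretch is the 250 bases before the listed start in RefSeq (GRCm38.p6), read 5′ to 3′ on the strand of the gene, and capitals mark matches to ISRE (GAAANNGAAA) or GAS (TTCCNGGAA) on either strand. The first 4 belong to the genes of smallest adjusted p among those higher in db/db whose promoter the table held, the next 2 to genes lower in db/db, and Ifit1 had the largest adjusted p. Ifit3 and Isg15 were added after their matches were seen, as neighbours of the Ifit genes and as the gene with the most matches.
Parp12 (chr6:39118350-39118599, minus strand): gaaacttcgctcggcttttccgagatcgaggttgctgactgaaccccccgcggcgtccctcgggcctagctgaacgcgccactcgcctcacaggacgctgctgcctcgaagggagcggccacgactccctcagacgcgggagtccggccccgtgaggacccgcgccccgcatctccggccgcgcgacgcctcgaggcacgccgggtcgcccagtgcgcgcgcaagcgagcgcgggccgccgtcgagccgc
Ifi47 (chr11:49076337-49076586, plus strand): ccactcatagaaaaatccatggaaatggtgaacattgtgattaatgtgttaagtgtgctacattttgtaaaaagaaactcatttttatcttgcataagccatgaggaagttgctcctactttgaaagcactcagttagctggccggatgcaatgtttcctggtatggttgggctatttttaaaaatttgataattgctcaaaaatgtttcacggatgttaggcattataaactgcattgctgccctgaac
Ifih1 (chr2:62646256-62646505, minus strand): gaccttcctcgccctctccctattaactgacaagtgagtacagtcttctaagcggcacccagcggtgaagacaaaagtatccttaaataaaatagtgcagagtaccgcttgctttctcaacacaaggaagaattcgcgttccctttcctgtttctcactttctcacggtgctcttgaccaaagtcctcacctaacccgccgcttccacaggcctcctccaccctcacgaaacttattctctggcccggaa
Ifit2 (chr19:34550444-34550693, plus strand, the first of 2 listed starts): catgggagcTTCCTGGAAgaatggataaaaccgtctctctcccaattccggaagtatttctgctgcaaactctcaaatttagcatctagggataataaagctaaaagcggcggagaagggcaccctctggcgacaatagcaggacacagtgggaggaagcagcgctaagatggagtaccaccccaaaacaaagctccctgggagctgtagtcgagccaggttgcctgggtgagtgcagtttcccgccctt
Irf8 (chr8:120736108-120736357, plus strand, the first of 2 listed starts): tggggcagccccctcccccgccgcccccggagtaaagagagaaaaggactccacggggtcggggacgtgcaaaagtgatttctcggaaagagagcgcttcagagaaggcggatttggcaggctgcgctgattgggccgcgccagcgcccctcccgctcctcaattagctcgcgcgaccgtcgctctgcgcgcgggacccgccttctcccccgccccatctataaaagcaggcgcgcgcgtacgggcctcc
Ifngr1 (chr10:19591699-19591948, plus strand): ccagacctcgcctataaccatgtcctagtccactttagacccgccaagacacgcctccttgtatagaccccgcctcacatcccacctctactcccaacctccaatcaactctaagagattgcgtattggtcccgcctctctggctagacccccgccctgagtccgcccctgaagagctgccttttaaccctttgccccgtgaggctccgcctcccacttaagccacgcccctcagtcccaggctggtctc
Ifit1 (chr19:34640639-34640888, plus strand): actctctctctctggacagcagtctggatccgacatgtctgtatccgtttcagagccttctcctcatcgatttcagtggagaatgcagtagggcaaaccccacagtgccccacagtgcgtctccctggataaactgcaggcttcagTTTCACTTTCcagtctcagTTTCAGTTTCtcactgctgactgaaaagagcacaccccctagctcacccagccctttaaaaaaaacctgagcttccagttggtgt
Ifit3 (chr19:34583279-34583528, plus strand): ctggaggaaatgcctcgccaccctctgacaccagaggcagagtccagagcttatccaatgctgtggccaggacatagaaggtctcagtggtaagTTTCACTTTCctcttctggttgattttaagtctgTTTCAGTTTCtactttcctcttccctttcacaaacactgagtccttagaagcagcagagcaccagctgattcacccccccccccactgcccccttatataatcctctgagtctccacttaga
Isg15 (chr4:156200819-156201068, minus strand): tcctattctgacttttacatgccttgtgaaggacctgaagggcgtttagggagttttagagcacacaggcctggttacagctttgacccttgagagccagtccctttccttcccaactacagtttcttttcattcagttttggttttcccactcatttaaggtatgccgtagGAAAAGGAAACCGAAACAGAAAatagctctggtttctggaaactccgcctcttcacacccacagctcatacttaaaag

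Isg15 held 3 overlapping ISRE matches, Ifit3 and Ifit1 held 2 each, and Ifit2 held 1 GAS match. The other 5 stretches held neither pattern, which says only that these exact letters are not in this window. Looser forms of the 2 elements were not searched. Of the 34 genes of the set whose promoter was in the table, 13 (38.2%) held an ISRE match and 3 (8.82%) a GAS match, against 3.46% and 1.09% of the promoters of all 27025 genes. Among the 19 of these genes that were higher in db/db, 10 (52.6%) held an ISRE match, and among the 11 not past the threshold 2 did (18.2%). The 3 lower genes held 0. Genes without a promoter entry are in none of these counts. The set was given as interferon-stimulated, so its excess over all genes may follow from that choice and is no result of these data. Matches to ISRE that overlap were counted as found, and a match is a run of letters, not a site shown to be bound.

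**Figure D1:**
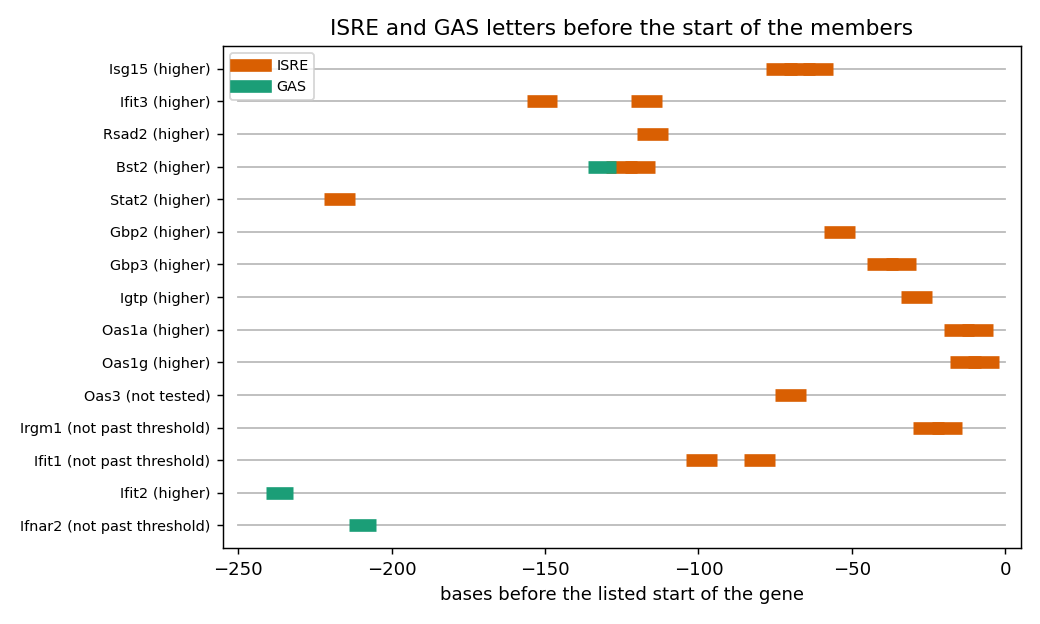
Positions of ISRE and GAS letters in the 250 bases before the listed start of each gene of the set with a match (x axis, bases before the start; 1 line per gene, with its call in db/db against db/+ in brackets). Matches of Oas1a, Oas1g, Irgm1, Igtp and Gbp3 lie within 45 bases of the start, and those of Ifit1, Ifit3, Isg15, Rsad2 and Bst2 lie farther away.

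Of the 43 genes tested, 26 were higher in db/db, 3 were lower and 14 did not pass the threshold of 0.05 on limma's adjusted p. Across all 19557 genes, 17.1% were higher and 18.1% were lower (35.2% in either direction), against 60.5% and 6.98% of the set. The groups were fully separate in 24 of the 43, with db/db the higher, and in 3 with db/db the lower, where this held for 12.9% and 13.2% of the 18627 genes with 10 values. The median difference was 0.86 over the set and -0.02 over all genes, with a range in the set from -0.71 for Irf8 to 2.05 for Ifit2. A rise of at least 2-fold was seen in 16 genes of the set and in 3.1% of all genes tested.

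**Figure D2:**
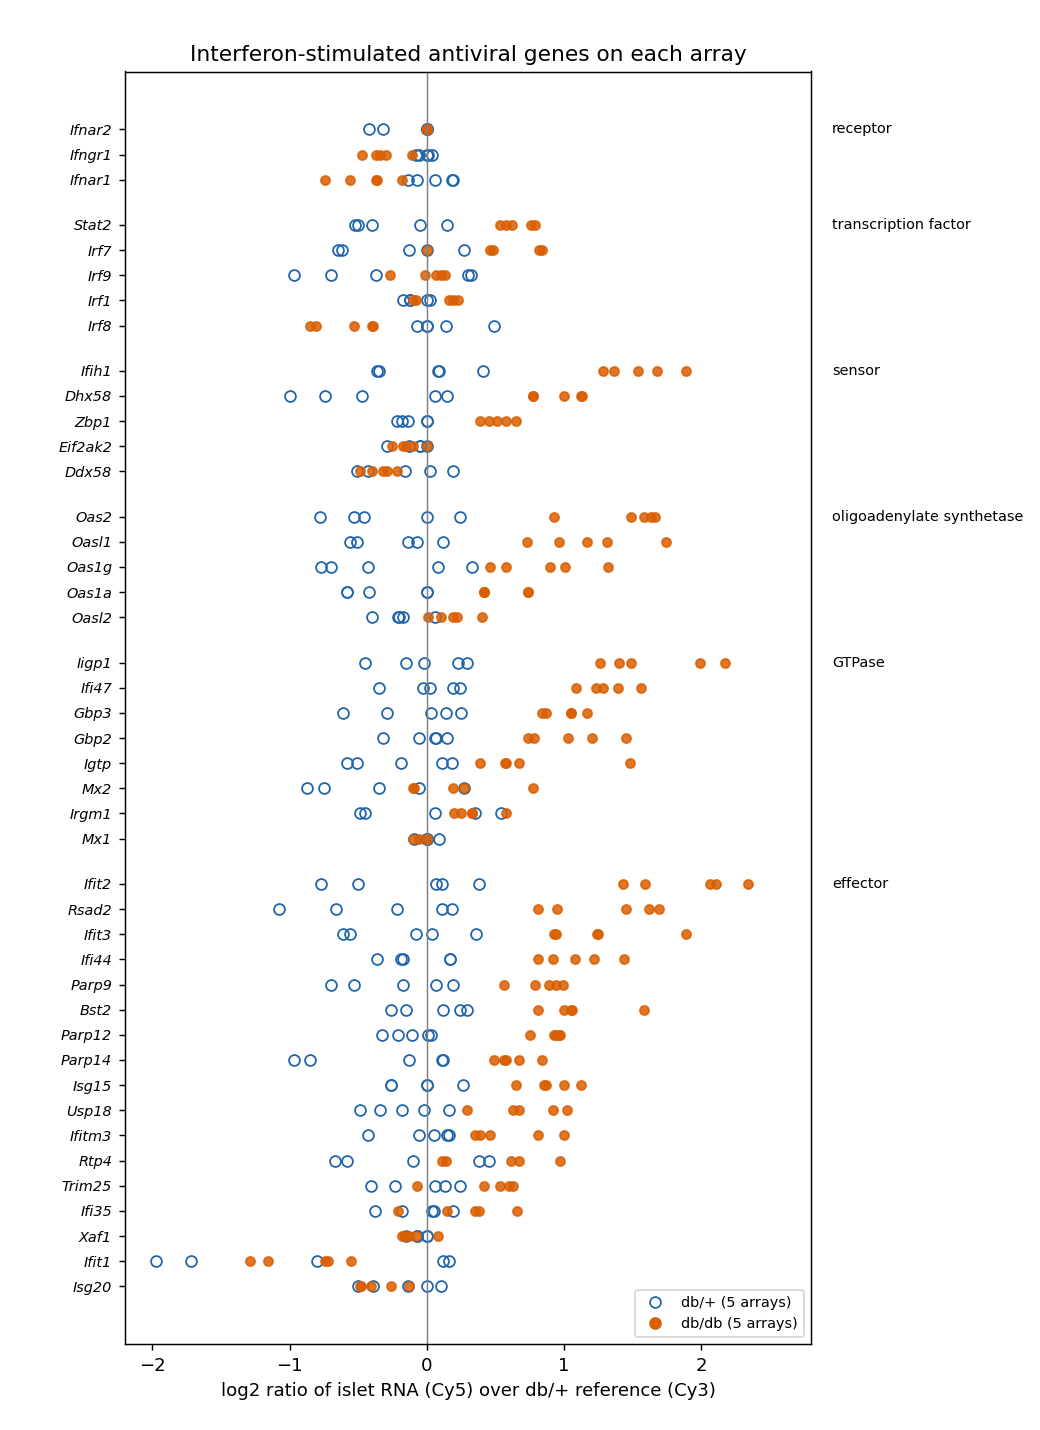
Log2 ratio over the db/+ reference (x axis) of each of the 43 tested genes on each array, with db/+ as open and db/db as filled circles, sorted by class. Most oligoadenylate synthetases, GTPases and effectors have all filled circles to the right of all open ones, while Irf8, Ifnar1 and Ifngr1 have them to the left.

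The db/+ arrays differed among themselves in these genes. The median ratio of the set was -0.34, -0.41, -0.11, 0.02 and 0.15 on db/+ and 0.51, 0.84, 0.67, 0.46 and 0.58 on db/db. Replicates 1 and 2 of db/+ were the lowest arrays, with 32 and 34 of the 43 genes below the reference, against 8 on replicate 5, and 31.3%, 31.4% and 34.1% of all genes on those arrays. The lowest db/+ value was on replicate 1 for 14 genes and on replicate 2 for 20. Among the 26 higher genes, replicate 2 had the highest db/db value for 23. The median SD of the db/+ arrays was 0.29 over the set and 0.13 over all genes, and on db/db 0.21 and 0.15. Without db/+ replicates 1 and 2, a setting chosen after seeing the data, 23 genes of the set were higher and 4 lower, and Igtp, Irf7 and Oasl2 no longer passed.

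**Figure D3:**
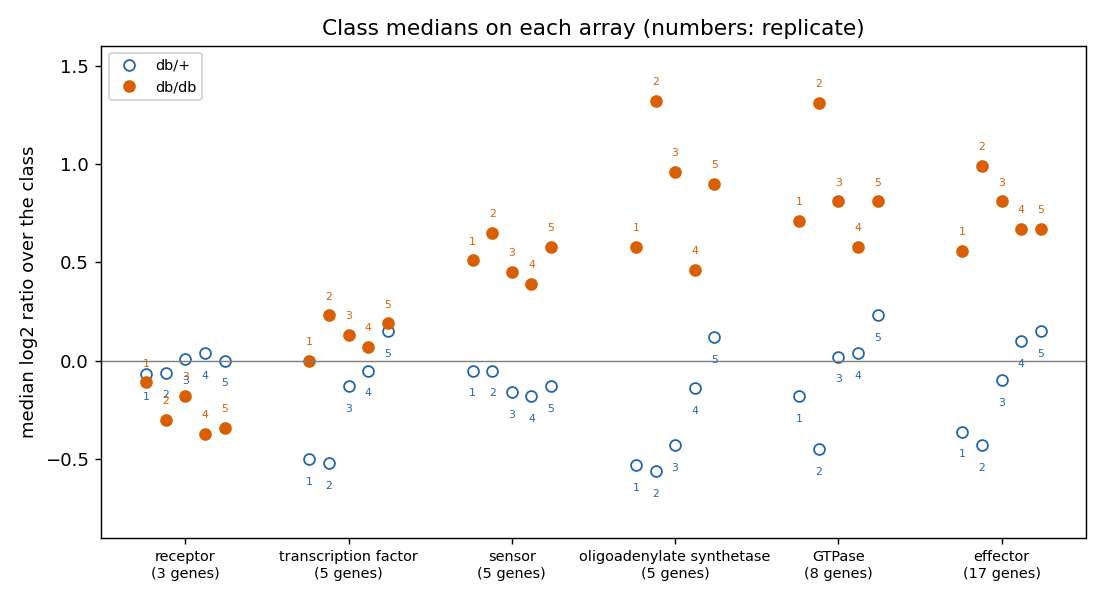
Median log2 ratio over each class of genes (y axis) on each array, labelled with its replicate number, for db/+ (open) and db/db (filled). The class medians of sensors, oligoadenylate synthetases, GTPases and effectors are higher on every db/db array than on any db/+ array, and among the db/+ arrays replicates 1 and 2 are lowest in all classes but sensors.

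Markers of some other cells of the islet preparation also differed between the groups, and their part in these results was not tested. Across all genes, 17.1% were higher in db/db and 18.1% lower, to be set beside the marker shares below. Of 21 macrophage and myeloid markers, 9 were higher (42.9%) and 0 lower, among them Mpeg1 (0.80), Fcgr3 (1.05) and C1qa (0.90). Cd68, Adgre1 and Ptprc did not pass the threshold, at -0.10, 0.07 and 0.13. The summed Cy5 intensity of these markers was 20.4 to 32.7 units on db/+ and 33 to 40.3 on db/db. It came mostly from Itgam, with a mean of 12.2 units on db/+ and 12.1 on db/db, and C1qa, with 8.05 and 14.2. The median ratio of the 21 markers was 0.14, 0.05, 0.15, -0.15 and -0.16 on the db/+ arrays, and 0.29 to 0.51 on db/db. None of the 21 had a mean intensity of 0, and 4 were under 0.049 units, the lower quartile of all probes. Mesenchymal markers were higher for 8 of 10 (80.0%), with a sum of 1.4 to 2.65 units on db/+ and 3.78 to 7.2 on db/db. T and NK cell markers were higher for 2 of 14 (14.3%, below the share of all genes). The sum of the 12 with a value on every array (7.63 to 19.2 units on db/+, 12.6 to 15.9 on db/db) came mostly from Cd3e, at 12.7 units in the reference. Dendritic cell markers were higher for 1 of 8 (12.5%), with 1 lower (12.5%), both below the shares of all genes. B cell markers were higher for 3 of 7 (42.9%).

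Of 13 tested beta cell markers 8 were lower (61.5%, beside 18.1% of all genes) and 0 higher, with sums of 22.1 to 26 units on db/+ and 14.5 to 15.9 on db/db. Of these 13, 12 had a value on every array and entered the sums. Pdx1, a beta cell transcription factor, read 1.01 to 1.32 units on db/+ and 0.73 to 0.93 on db/db. Alpha cell markers were higher for 3 of 6 and lower for 1 (9.54 to 10.9 units on db/+, 21.2 to 30.2 on db/db). Delta and PP cell markers were higher for 1 of 4 and lower for 2. Of 14 acinar markers on the array, 7 had enough values to be tested. Of these 7, 3 were lower, or 42.9% (42.0 to 63.6 units on db/+, 20.2 to 44.8 on db/db), and the differences of all 7 lay between -1.36 and -0.66. Duct markers were higher for 3 of 8, or 37.5% (16.3 to 23.3 and 24.4 to 30.2 units). Endothelial markers were higher for 3 of 12 and lower for 2, and erythroid markers were higher for 3 of 6 and lower for 1 (4.05 to 15.8 and 15.2 to 41.5 units). In whole islets, fewer cells of a type and less RNA per cell cannot be told apart. The Lepr probe was at 0.0117 units in the reference and did not pass the threshold (adjusted p = 0.454, limma). Its position in the gene is not given, so it does not check the genotype.

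None of the 3 receptor genes was higher in db/db. Ifngr1 and Ifnar1 were lower, and Ifnar2 did not pass the threshold. Ifnar1, a chain of the type I interferon receptor, had ratios of -0.07, -0.14, 0.19, 0.06 and 0.18 on db/+ and -0.74, -0.36, -0.18, -0.37 and -0.56 on db/db. The groups did not overlap, and the difference was -0.49 ± 0.11 (SE; adjusted p = 0.00653, limma), or 1.40-fold lower. Ifngr1, the ligand-binding chain of the interferon gamma receptor, had ratios of -0.08, -0.06, 0.01, 0.04 and 0 on db/+ and -0.11, -0.30, -0.47, -0.37 and -0.34 on db/db. All db/db arrays were again lower than all db/+ arrays, replicate 1 of db/db by little, and the difference was -0.30 ± 0.06 (SE; adjusted p = 0.00481), or 1.23-fold lower. Both calls were lost when the ratios were quantile normalized, with adjusted p of 0.105 for Ifnar1 and 0.186 for Ifngr1, and that of Ifngr1 also with the Cy5 signal alone (0.114). Ifnar2, the other chain of the type I receptor, read 0.038 units in the reference, close to the rounding step of 0.01, and its ratios were 0 on every db/db array and 0, 0, -0.42, -0.32 and 0 on db/+.

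The transcription factors moved in different directions: Stat2 and Irf7 were higher, Irf8 was lower, and Irf1 and Irf9 did not pass. Stat2, a part of the complex that binds ISRE, had ratios of -0.50, -0.52, -0.40, -0.05 and 0.15 on db/+ and 0.62, 0.79, 0.58, 0.53 and 0.76 on db/db. The groups were well apart, with a difference of 0.92 ± 0.13 (SE; adjusted p = 0.000609, limma), or 1.89-fold. Irf7, which drives a second wave of type I interferon production, had ratios of -0.62, -0.65, -0.13, 0 and 0.27 on db/+ and 0, 0.84, 0.82, 0.48 and 0.46 on db/db. The groups overlapped at db/db replicate 1, and the difference of 0.74 ± 0.22 passed narrowly (adjusted p = 0.0252). It no longer passed without db/+ replicate 1 or 2 or without db/db replicate 2 or 3, with an adjusted p of up to 0.0593, nor with quantile normalization (0.134), by the exact permutation test (0.0728) or with the Cy5 signal alone (0.0555).

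Irf8, a factor of myeloid and B cell development, had ratios of 0.14, 0, 0.49, -0.07 and 0 on db/+ and -0.85, -0.39, -0.53, -0.40 and -0.81 on db/db. All db/db arrays were below all db/+ arrays, and the difference was -0.71 ± 0.13 (SE; adjusted p = 0.00247, limma), or 1.63-fold lower. Irf8 had the largest fall among the tested probes of the set, and 9 of the 21 macrophage and myeloid markers were higher (42.9%, beside 17.1% of all genes). Irf9, the DNA-binding part of the complex with Stat2, had ratios of -0.97, -0.70, -0.37, 0.30 and 0.32 on db/+ and -0.27, -0.01, 0.13, 0.07 and 0.10 on db/db. The db/+ arrays lay on both sides of the db/db arrays, with an SD of 0.58 on db/+ and 0.16 on db/db, and the difference was 0.29 ± 0.25 (adjusted p = 0.422).

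Irf1, an early factor of the interferon gamma response, was measured by a pair of probes that differed. The tested probe had ratios of 0.02, 0, -0.12, -0.17 and -0.12 on db/+ and 0.16, 0.23, -0.10, -0.08 and 0.19 on db/db, overlapping groups with a difference of 0.16 ± 0.08 (SE; adjusted p = 0.145, limma). The other probe, with 17.4 units in the reference, had ratios of -0.62, -0.56, -0.80, -0.88 and -0.86 on db/db but only -0.03 and 0.16 on db/+, on replicates 1 and 5. With 2 db/+ values it was not tested. All 5 of its db/db values were below both db/+ values, while those of the tested probe were not.

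Among the sensors, Ifih1, Dhx58 and Zbp1 were higher and Ddx58 and Eif2ak2 did not pass the threshold. Ifih1, which detects long double-stranded RNA, had ratios of -0.35, -0.36, 0.08, 0.41 and 0.09 on db/+ and 1.28, 1.68, 1.54, 1.36 and 1.89 on db/db. Every db/db array was far above every db/+ array, and the difference was 1.58 ± 0.17 (SE; adjusted p = 0.000102, limma), or 2.99-fold. Its other probe gave 1.31 ± 0.16 (adjusted p = 0.000244). Dhx58, a relative that lacks the signalling domain and modulates the other RNA sensors, had ratios of -1, -0.74, -0.47, 0.06 and 0.15 on db/+ and 1, 1.13, 0.77, 0.77 and 1.12 on db/db. The groups did not overlap although db/+ spread widely, and the difference was 1.36 ± 0.22 (adjusted p = 0.00114). Zbp1, which binds left-handed nucleic acid and can start cell death, had ratios of 0, 0, -0.22, -0.18 and -0.14 on db/+ and 0.51, 0.65, 0.45, 0.39 and 0.58 on db/db. Its arrays were tightly grouped and apart, at a difference of 0.63 ± 0.07 (adjusted p = 8.24e-05). Zbp1 was dim, at 0.136 units in the reference, where 1 rounding step is 0.10 log2 units, so its spread is partly set by rounding.

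Ddx58 encodes RIG-I, the sensor of short RNA with a free triphosphate end, and belongs to the same helicase family as Ifih1 and Dhx58. Its ratios were 0.19, 0.02, -0.16, -0.43 and -0.51 on db/+ and -0.22, -0.29, -0.32, -0.40 and -0.49 on db/db. The db/db arrays lay within the db/+ range, with a difference of -0.17 ± 0.13 (SE; adjusted p = 0.362, limma). Replicates 1 and 2 of db/+ were the highest for Ddx58, and were the lowest for Dhx58. Eif2ak2, the kinase PKR that halts translation on double-stranded RNA, had ratios of -0.05, -0.05, 0, -0.29 and -0.13 on db/+ and -0.10, 0, -0.25, -0.17 and -0.15 on db/db. The groups overlapped throughout, at -0.03 ± 0.07 (adjusted p = 0.755).

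All 5 tested oligoadenylate synthetase genes were higher in db/db. The active enzymes of this family make oligoadenylates on double-stranded RNA, which activate the RNA-degrading enzyme RNase L. Oas2 had ratios of -0.53, -0.78, -0.46, 0 and 0.24 on db/+ and 0.93, 1.63, 1.66, 1.49 and 1.58 on db/db. The groups were far apart, with db/db replicate 1 below the other db/db arrays, and the difference was 1.77 ± 0.21 (SE; adjusted p = 0.000195, limma), or 3.40-fold. Oas2 was dim, at 0.115 units in the reference, where 1 rounding step is 0.12 log2 units. Oasl1, a synthetase-like protein that in mice restrains Irf7 translation, had ratios of -0.51, -0.56, -0.07, -0.14 and 0.12 on db/+ and 1.31, 1.74, 0.96, 0.73 and 1.17 on db/db. The groups were fully separate, at 1.42 ± 0.20 (adjusted p = 0.000508). Oasl2, its neighbour, had ratios of -0.20, -0.40, -0.21, -0.17 and 0.06 on db/+ and 0.19, 0.40, 0.10, 0.01 and 0.22 on db/db. It had the smallest rise of the class, 0.37 ± 0.09 (adjusted p = 0.0125), and db/db replicate 4 overlapped db/+ replicate 5. It no longer passed with the Cy5 signal alone or by the exact permutation test.

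Oas1g had ratios of -0.77, -0.70, -0.43, 0.08 and 0.33 on db/+ and 0.58, 1.32, 1.01, 0.46 and 0.90 on db/db on its brighter probe. The groups did not overlap, at 1.15 ± 0.25 (SE; adjusted p = 0.00537, limma), and with quantile normalization it no longer passed (adjusted p = 0.0685). Its other probe, at 0.039 units in the reference, gave 0.20 ± 0.22 (adjusted p = 0.51), and at that intensity the rounding step of 0.01 is a large part of the signal. Oas1a was as dim, at 0.031 units, with ratios of -0.58, 0, -0.58, -0.42 and 0 on db/+ and 0.42, 0.74, 0.74, 0.42 and 0.42 on db/db. Several of these values repeat exactly. The groups were apart at 0.86 ± 0.15 (adjusted p = 0.00141). Oas1a and Oas1g are close copies in 1 gene cluster, and with the probe sequences not given their signals may not be separate. Oas3, in the same cluster, had values on db/+ replicates 4 and 5 only, of -0.60 and 0.02 on 1 probe and -0.51 and 0.07 on the other, and no value on any db/db array. Its reference signal of 17.5 units was at the bright end, where many spots of the array are blank.

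Of the GTPases, 5 of 8 were higher in db/db. They fall into the Mx proteins, which block viral particles, and the guanylate-binding proteins and immunity-related GTPases, which interferon gamma induces strongly and which attack the vacuoles of microbes. Ifi47, an immunity-related GTPase, had ratios of -0.03, -0.35, 0.19, 0.02 and 0.24 on db/+ and 1.39, 1.56, 1.23, 1.09 and 1.28 on db/db. The groups were far apart, at 1.29 ± 0.12 (SE; adjusted p = 4.67e-05, limma), or 2.45-fold. Iigp1, of the same family, had ratios of 0.29, -0.45, -0.02, -0.15 and 0.23 on db/+ and 1.99, 2.17, 1.40, 1.26 and 1.49 on db/db. It had the largest rise of the class, 1.68 ± 0.21 (adjusted p = 0.000216), or 3.20-fold, and its lowest db/db array was well above its highest db/+ array. Igtp, which regulates the other immunity-related GTPases, had ratios of -0.58, -0.51, -0.19, 0.11 and 0.18 on db/+ and 0.67, 1.48, 0.57, 0.39 and 0.58 on db/db. Replicate 2 of db/db stood above the other 4, and the groups did not overlap, at 0.94 ± 0.23 (adjusted p = 0.0104).

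The guanylate-binding proteins Gbp2 and Gbp3 are encoded next to each other, and both rose. Gbp2 had ratios of -0.06, -0.32, 0.15, 0.06 and 0.07 on db/+ and 0.74, 1.45, 1.20, 0.78 and 1.03 on db/db, a difference of 1.06 ± 0.15 (SE; adjusted p = 0.000445, limma). Gbp3 had ratios of -0.29, -0.61, 0.03, 0.14 and 0.25 on db/+ and 0.84, 1.17, 1.05, 0.87 and 1.05 on db/db, a difference of 1.09 ± 0.16 (adjusted p = 0.000571). Neither gene had overlapping groups. Mx2 had ratios of -0.87, -0.75, -0.35, -0.06 and 0.27 on db/+ and -0.09, 0.77, 0.19, -0.10 and 0.27 on db/db. The groups overlapped, at 0.56 ± 0.25 (adjusted p = 0.111), and without db/+ replicate 5 it passed (adjusted p = 0.0429). Irgm1, a regulatory immunity-related GTPase, stood at 0.34 ± 0.20 (adjusted p = 0.238) and Mx1 at -0.03 ± 0.04 (adjusted p = 0.577). RefSeq lists Mx1 and Mx2 as transcribed pseudogenes in the reference strain of the mouse.

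Of the 17 other effectors, 11 were higher in db/db, 0 were lower and 6 did not pass. Ifit2, an RNA-binding inhibitor of translation, had the largest rise of all 43 genes. Its ratios were -0.77, -0.50, 0.07, 0.11 and 0.38 on db/+ and 2.11, 2.34, 1.59, 1.43 and 2.06 on db/db. Every db/db array was more than 1 log2 unit above every db/+ array, and the difference was 2.05 ± 0.25 (SE; adjusted p = 0.000217, limma), or 4.13-fold. Mean Cy5 intensity was 5.97 units on db/db and 1.47 on db/+. Parp12, an ADP-ribosyltransferase that inhibits translation, had ratios of -0.21, -0.33, -0.11, 0.01 and 0.03 on db/+ and 0.96, 0.93, 0.94, 0.75 and 0.97 on db/db. It had the smallest adjusted p of the set, and both groups were tight, at 1.03 ± 0.08 (adjusted p = 1.1e-05), or 2.04-fold.

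Parp9, which acts with a ubiquitin ligase in interferon signalling, had ratios of -0.53, -0.70, -0.17, 0.19 and 0.07 on db/+ and 0.56, 0.99, 0.89, 0.79 and 0.94 on db/db. The groups did not overlap, at 1.06 ± 0.17 (SE; adjusted p = 0.00114, limma). Bst2, the tethering protein that holds budding virus at the cell surface, had ratios of 0.29, 0.12, 0.24, -0.26 and -0.15 on db/+ and 1.05, 1.58, 1.06, 0.81 and 1 on db/db. Here db/+ replicates 1 and 2 were not the low arrays, and the groups were apart at 1.06 ± 0.16 (adjusted p = 0.000702). Bst2 was dim, at 0.113 units in the reference, where 1 rounding step is 0.12 log2 units.

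Ifi44, a cytoplasmic protein of the response, had ratios of -0.36, -0.17, -0.19, 0.17 and 0.17 on db/+ and 0.92, 1.44, 1.08, 0.81 and 1.22 on db/db, a difference of 1.17 ± 0.14 (SE; adjusted p = 0.000221, limma). Isg15, a ubiquitin-like modifier, had ratios of 0, 0, 0.26, -0.26 and -0.26 on db/+ and 0.65, 1.12, 0.87, 0.85 and 1 on db/db, a difference of 0.95 ± 0.12 (adjusted p = 0.000232). The groups did not overlap for either gene. Both probes were dim, at 0.084 and 0.06 units in the reference, so that 1 rounding step is a visible part of each ratio.

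The remaining higher effectors ranged from 0.63 for Ifitm3, which blocks virus entry, to 1.64 for Rsad2 (viperin, which makes a chain-terminating nucleotide), with Usp18, the protease that removes Isg15, at 0.88. Of the 17 effectors, 11 had all db/db arrays above all db/+ arrays, beside 12.9% of all genes with 10 values. These are the 11 called higher, and the call and the separation rest on the same values. Of the 6 that did not pass, Rtp4 stood at 0.60 (adjusted p = 0.109, limma), Trim25, a ubiquitin ligase of the RIG-I pathway, at 0.46 (0.0539), Ifi35 at 0.32 (0.163), Xaf1 at -0.04 (0.654), the exonuclease Isg20 at -0.17 (0.331) and Ifit1 at -0.05 (0.957). Ifitm3 no longer passed with quantile normalization or with the replicate number as a block. Trim25 passed under 8 of the 22 alternatives, among them loess, array weights, the replicate block, both filters on dim probes and leaving out db/+ replicate 4 or db/db replicate 1 (adjusted p down to 0.0106). Ifi35 passed without db/db replicate 1 (0.0379), and Rtp4 without probes under the median intensity (0.0489).

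Ifit1 is shown with its neighbours Ifit2 and Ifit3, a choice made after their values were seen. Ifit1 recognises viral RNA caps, and Ifit3 is its partner. Ifit1 had ratios of -1.97, -1.72, -0.80, 0.12 and 0.16 on db/+ and -0.74, -0.55, -1.29, -1.16 and -0.72 on db/db. The 5 db/db arrays were all below the reference, but db/+ replicates 1 and 2 were lower still, and the SD on db/+ was 0.997 (n = 5). The difference was -0.05 ± 0.43 (SE; adjusted p = 0.957, limma), and its sign turned without db/+ replicate 4 (0.19) or 5 (0.20) and without db/db replicate 3 (0.05) or 4 (0.02). Ifit3 had ratios of -0.56, -0.61, -0.08, 0.04 and 0.36 on db/+ and 0.94, 1.89, 1.25, 0.93 and 1.24 on db/db, at 1.42 ± 0.24 (adjusted p = 0.00126). All 3 genes shared low values on db/+ replicates 1 and 2, while on db/db Ifit2 and Ifit3 were above the reference and Ifit1 below it. Mice carry a close copy of Ifit3, named Ifit3b, and the probe may read both. Ifit3b, on its own probe, was higher by 2.18 (adjusted p = 0.000633, limma).

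Parp14, a partner of Parp9 encoded beside it, was measured by a pair of probes that moved in different directions. The brighter, at 7.11 units in the reference, had ratios of -0.85, -0.97, -0.13, 0.11 and 0.12 on db/+ and 0.56, 0.84, 0.67, 0.49 and 0.58 on db/db, a difference of 0.97 ± 0.23 (SE; adjusted p = 0.00818, limma) with groups apart. The dimmer, at 0.252 units, had ratios of -0.43, -0.56, -0.06, 0.12 and 0.26 on db/+ and -0.64, -0.32, -0.84, -0.68 and -0.43 on db/db, a difference of -0.45 ± 0.17 (adjusted p = 0.0732) with groups that overlapped. On db/+ both probes were lowest on replicates 1 and 2. With the mean of both probes, Parp14 no longer passed, at 0.26 (adjusted p = 0.329). The cause was not tested.

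**Figure D4:**
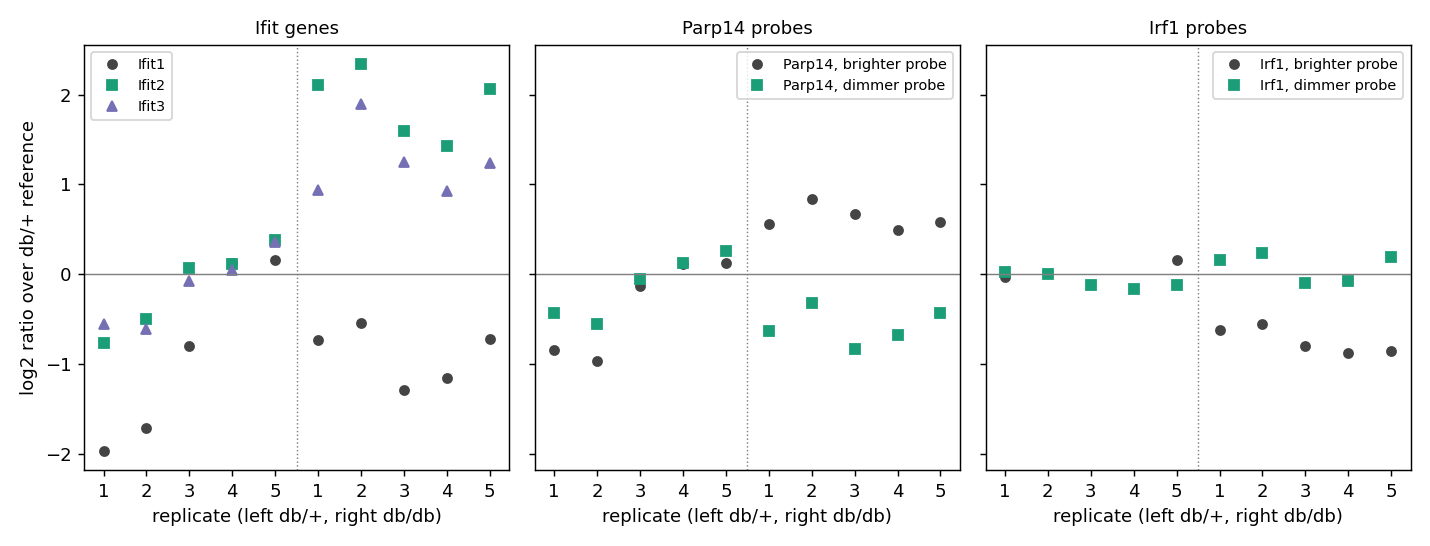
Log2 ratio over the db/+ reference (y axis) on each array (x axis, db/+ replicates 1 to 5 at the left, db/db at the right) for Ifit1, Ifit2 and Ifit3, for the pair of Parp14 probes and for the pair of Irf1 probes. Ifit1 and the dimmer Parp14 probe follow their partners on db/+ and lie on the other side of 0 on db/db, and the brighter Irf1 probe has only 2 db/+ values.

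**Figure D5:**
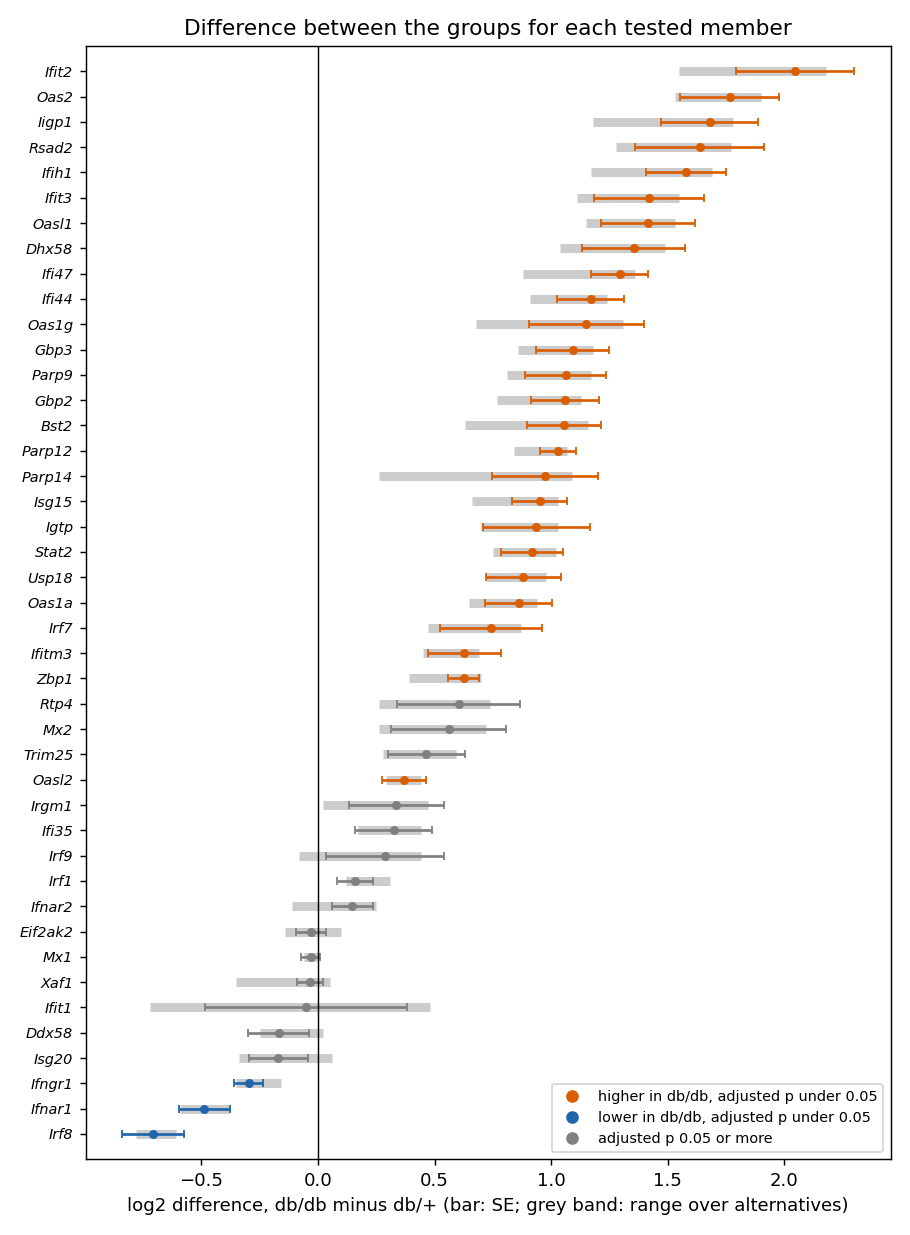
Difference of the log2 ratios, db/db minus db/+ (x axis), of the 43 tested genes with the standard error of limma's fit (bars, 5 arrays per group), coloured by call, and the range of the difference over 22 alternative settings (grey bands). Ifit2 is at the top at 2.05 and Irf8 at the bottom at -0.71, and Ifit1 has a wide bar and band around 0.

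The pathway around these genes was read from 4 further lists. Of 21 interferon genes, 3 were higher (14.3%) and 2 lower (9.52%), shares below the 17.1% and 18.1% of all genes, with a median difference of 0.01, and in none did the groups separate fully. Those of smallest adjusted p were Ifna7 (0.25, adjusted p = 0.0041, limma), Ifna6 (-0.42, 0.0126), Ifna2 (0.27, 0.0222) and Ifna16 (-0.31, 0.0281). Ifnb1, for interferon beta, stood at -0.11 (0.775) and Ifng, for interferon gamma, at 0.08 (0.709), both named for their role in the pathway. In the reference, Ifng read 0.052 units, Ifna2 0.101, Ifnb1 0.137 and Ifna7 0.151, under the median of 0.158 over all probes. Ifna6 and Ifna16 read 0.298 and 0.397. With a rounding step of 0.01, such dim probes do not show whether an interferon changed a little. The Ifna genes are close copies of each other, so their probes may share signal.

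Of 19 signalling genes, 3 were higher (15.8%, near the 17.1% of all genes) and 7 lower (36.8%, beside 18.1%), with a median of -0.12. Jak1, the kinase of all interferon receptors, had ratios of -0.18, -0.02, 0.14, 0.27 and 0.10 on db/+ and -0.79, -0.72, -0.70, -0.61 and -0.51 on db/db, a difference of -0.73 ± 0.09 (SE; adjusted p = 0.000175, limma) with groups apart. Irf5, a factor of inflammatory macrophages, was higher by 1.28 ± 0.12 (adjusted p = 4.19e-05), and Il10rb, a chain of the type III interferon receptor, by 0.54 (adjusted p = 0.000115). Irf5 was dim, at 0.109 units in the reference, beside a rounding step of 0.01.

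Of 22 genes of nucleic acid sensing and its relay, 7 were higher (31.8%, beside 17.1% of all genes) and 2 lower (9.09%, beside 18.1%), with a median of 0.10. The double-stranded RNA editor Adar was higher by 0.74 (adjusted p = 0.000209, limma), the endosomal RNA receptor Tlr3 by 0.95 (0.000213) and its chaperone Unc93b1 by 0.66 (0.000279), while the helicase Ddx41 was lower, at -0.51 (0.00239). In the reference, Tlr3 read 0.075 units and Adar 0.149, under the median of 0.158 over all probes. Of 74 further interferon-stimulated genes tested, 34 were higher (45.9%) and 4 lower, with a median of 0.35, beside 17.1% higher among all genes. Sp110, a nuclear body protein, was higher by 1.23 (adjusted p = 1.07e-05) and Lgals3bp, a secreted glycoprotein, by 1.55 (1.07e-05). Ms4a4c was higher by 1.84 (1.33e-05), or 3.57-fold, and Ifi202b, a DNA-binding protein, by 0.81 (5.25e-07). Ms4a4c was dim, at 0.086 units in the reference. Ifi202b read 0.0356 units in the reference, and its ratios were 0 on every db/+ array and 0.81 on the 4 db/db arrays with a value, a step set by rounding.

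The Cy3 channel holds the same db/+ reference on every array. Its log2 intensities were compared between the groups with the same fit, but after quantile normalization across the arrays. Of 46 probes of the set tested there, 2 had an unadjusted p under 0.05 and the lowest adjusted p was 0.869 (limma), so the reference signal of these genes did not pass the threshold between the groups. Among all 23138 probes, 5 passed it.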

How the data were processed

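Labelled islet RNA of 5 db/db and 5 db/+ replicates (Cy5) was hybridised with a db/+ reference (Cy3) after 2 rounds of amplification, per the labels. The submitters' processing notes name Agilent Feature Extraction 8.5.1.1 for image reading. The deposited intensities of both channels are in arbitrary units mostly rounded to 0.01, per the file headers and values. The authors' p-values per probe and array were not used. The deposited log10 ratios equal the log10 of Cy5 over Cy3 intensity and were turned here into log2 ratios. How the authors treated background and dyes is not known from the sources used here. The median ratio was 0 on every array, and no further scaling was applied. Of 23512 probes, 22657 to 23365 had a value on an array. The number of arrays limits the precision.

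Each gene was its probe of highest mean Cy3 intensity with at least 3 values per group, named through RefSeq (GRCm38.p6). The comparison used limma (3.58.1, run in R 4.3.3; lmFit, eBayes, no covariate, Benjamini-Hochberg over 19557 genes, threshold 0.05, 2-sided). Separate mice per replicate are not stated, so p-values measure the spread between these samples. The fit was tested on simulated data. The genes and lists were chosen with earlier results of these data known. Array values are given for up to 6 genes per class, those of smallest adjusted p, and for genes whose probes disagree, and up to 4 genes passing per further list. Promoters follow the rule given beside them. Of the set, 10 genes had no promoter entry (Mx1, Mx2, Usp18, Dhx58, Parp9, Parp14, Iigp1, Zbp1, Rtp4 and Oas2). Alternatives are given in the closing section. The Cy3 or Cy5 signal taken alone was quantile normalized across the arrays before the fit, unlike the ratios of the main comparison. The values of 1 gene of the signalling list are not reported here.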

Additional observations from a re-analysis of the deposited data

Results flagged for a closer look

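In 3 of the 85 groups of 5 arrays checked, 1 array stood apart from the other 4 by more than 0.71 of the group's range, and chance alone flags about 1 group in 20. Oas2 was at 0.93 on db/db replicate 1, with the nearest other array at 1.49 (0.77 of the range). Igtp was at 1.48 on db/db replicate 2, with the nearest at 0.67 (0.737 of the range). Parp12 was at 0.75 on db/db replicate 4, with the nearest at 0.93 (0.833 of the range). All 3 values are log2 ratios on 1 db/db array, each a different one, and all 3 stayed above every db/+ array of the same gene.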

How the results depend on the processing

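Of the 29 genes of the set past the threshold, 21, of which 20 were higher in db/db, passed it under every one of the 22 alternatives that tested them. Quantile normalization of the ratios changed most: 3185 genes of the array passed in place of 6893. Of the set, 22 genes were higher (Ifitm3, Irf7, Oas1g and Parp14 were lost) and 1 was lower in place of 3. Of all genes, 8.57% were higher and 7.71% lower in this setting. Leaving out each array in turn gave 25 to 28 higher and 3 lower genes of the set, and 6046 to 6722 genes in all. Without probes under the median intensity, 22 were higher of 36 tested, beside 22.8% of all genes tested there. The exact permutation test, whose smallest p is 0.00794, gave 24 higher (Irf7 and Oasl2 were lost), beside 12.5% of all genes. These are the 24 genes whose groups were fully separate, so the test adds little to that count. Without both db/+ replicates 1 and 2, chosen after seeing the data, 6409 genes passed. The same replicate numbers did not pair the arrays (correlations of 0.0366 to 0.221), and with the replicate block 26 were higher (Ifitm3 lost, Trim25 gained) and 3 lower, and 6778 genes passed in all.

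Of differences not past the threshold, these turned sign: Ifit1 at 0.02 with loess, 0.48 with quantile normalization, 0.19 and 0.20 without db/+ replicates 4 and 5, and 0.05 and 0.02 without db/db replicates 3 and 4 (-0.33 to 0.20 over all arrays left out in turn). With quantile normalization Isg20 was at 0.06, Ddx58 at 0.01, Xaf1 at 0.05 and Eif2ak2 at 0.10. Without both db/+ replicates 1 and 2, Irf9 was at -0.08 and Ddx58 at 0.02, and with Cy5 alone Ifnar2 was at -0.11. The cause was not tested. Rounding limits dim probes: 2 tested genes of the set read under 0.049 units and 4 under 0.1.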
